A study of Mus musculus with 24 samples.

Results

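The clustered protocadherins are cadherin family adhesion proteins of the neuronal surface, encoded by a row of genes in 3 neighbouring clusters on mouse chromosome 18. They were taken as all genes of the expression table whose symbol starts with Pcdha, Pcdhac, Pcdhb, Pcdhga, Pcdhgb or Pcdhgc and ends in a number. This gave 58 of the 34745 genes listed, 14 in the alpha cluster, 22 in the beta cluster and 22 in the gamma cluster. Their RNA was measured by RNA-seq in 12 whole E13.5 mouse embryos, 1 library per embryo, as raw counts of reads per gene. The 6 M-Z+ embryos (genotype Zfp57-/+) lacked maternal Zfp57 and carried a wild-type allele from the father. The 6 M-Z- embryos (genotype Zfp57-/-) lacked both maternal and zygotic Zfp57. All 12 were 129/DBA hybrids, and the methods describe such embryos as offspring of Zfp57-/- mothers of the 129S6/SvEvTac strain and heterozygous fathers mainly of the DBA/2J strain, so that both groups lacked maternal Zfp57. Zfp57 encodes a KRAB zinc finger protein that maintains DNA methylation imprint. The comparison asked which members differed between embryos with and without the zygotic gene. The same series also lists 12 embryos with whole-genome bisulfite sequencing, 4 of them wild-type, which are not analysed here.

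In the alpha and gamma clusters each member has its own large first exon, the variable exon, which is spliced to a set of constant exons shared by the whole cluster. Beta members have 1 exon each and no constant exons. A single neuron transcribes a few variable members from its many promoters, and CTCF, cohesin and promoter DNA methylation are known to take part in that choice. The C-type members (Pcdhac and Pcdhgc) are regulated apart from the variable ones and are found in many neurons at the same time. The proteins bind only to the same protocadherin on the opposite cell, by which a neuron can tell its own branches from those of others. In whole embryos a level is a sum over all tissues, so that fewer cells of a type and less RNA per cell cannot be told apart.

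The table spaced the members over chr18:36930184-37187661 (alpha), chr18:37264938-37524479 (beta) and chr18:37661793-37841873 (gamma) in GRCm38. All 14 alpha entries ended within a few bases of each other, between 37187657 and 37187661, and all 22 gamma entries between 37841870 and 37841873. Each of these entries therefore overlapped every other entry of its cluster. Of the 22 beta entries, only Pcdhb21 and Pcdhb22 overlapped, by 455 bases. The sources used here do not say how reads in shared exons were divided among entries. The table gives the symbols Pcdha11 and Pcdhga8 to 2 entries each. One of each pair starts where RefSeq (GRCm38.p6) places Pcdha10 and Pcdhgc4, and these names are used here. The gamma cluster thus had 12 A, 7 B and 3 C members, and the alpha cluster had 12 variable and 2 C-type members.

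Total counts ranged from 12005145 to 19216288 per library. A level in CPM is a count scaled to library size with edgeR's TMM method. Levels of different members are ranked per kb of the length that the deposited FPKM values imply. These lengths ran from 5206 to 17574 bases in alpha, 2587 to 8875 in beta and 4615 to 11170 in gamma. The 8875 bases of Pcdhb22 exceeded the longest genomic span of any beta entry, 8695 bases, so that implied lengths were not all true gene lengths. Ranks per kb depend on these lengths as well as on the counts. Zfp57 had a CPM of 27.1 ± 8.25 (SD, n = 6) in the M-Z+ group and 24.5 ± 4.17 (SD, n = 6) in the M-Z- group, but this count does not check the labels, since the sources used here do not say which exons the deletion removed. The gene length slope of a library is how steeply log2 CPM rose with the log2 of gene length. It ran from 0.437, in M-Z+ replicate 4, to 0.670. The 3 highest values were in M-Z+ replicate 6 (0.668), M-Z- replicate 5 (0.660) and M-Z- replicate 6 (0.670).

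No clustered protocadherin was called different between M-Z- and M-Z+ embryos. The summed level of all 58 members was 637 ± 63.2 CPM (SD, n = 6) in the M-Z+ group and 663 ± 82.8 CPM (SD, n = 6) in the M-Z- group. The embryos of both groups overlapped for this sum, with 522 to 692 CPM in the M-Z+ group and 560 to 744 CPM in the M-Z- group. It overlapped for each cluster as well. The M-Z- mean was 1.03 times the M-Z+ mean for the alpha cluster, 1.07 times for the beta cluster and 1.03 times for the gamma cluster.

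**Figure D1:**
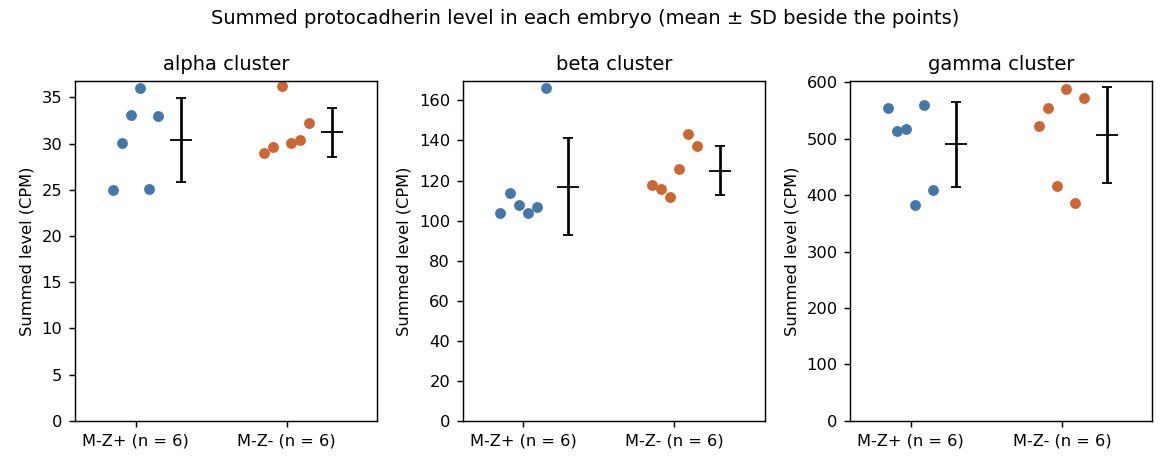
Summed CPM of the alpha, beta and gamma clusters in each of 12 embryos. Each point is 1 embryo, and the bar beside the points is the mean ± SD of 6 embryos. The groups overlap in each panel, and the highest beta sum is the 166 CPM of M-Z+ replicate 6.

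A total of 54 members passed edgeR's filter on low counts. Pcdha1, Pcdha8, Pcdhb1 and Pcdhb21 did not pass it. All 16026 genes that passed were tested with edgeR's quasi-likelihood method and adjusted together by Benjamini-Hochberg, and a call needed both a change of over 0.5 on the log2 scale and an adjusted p under 0.05. By this rule 0 of 54 members were called, beside 13 of 16026 genes (0.0811%). The lowest adjusted p of a member in edgeR was 0.464 (Pcdhgb4). DESeq2 also called 0 members, beside 40 genes of all those it tested (0.204%). Pcdhgb4 came near the limit there, with an adjusted p of 0.0512 in DESeq2. At an unadjusted p below 0.05, edgeR gave 6 of 54 members (11.1%), beside 6.70% of all genes, and DESeq2 gave 8 of the 57 members to which it gave a p (14.0%), beside 5.07% of all genes with a DESeq2 p. Of the 6 members 5 were also beyond the fold change limit, beside 1.54% of all genes. These were Pcdhb4, Pcdhgb4, Pcdhgb5, Pcdhga9 and Pcdhga11, and the sixth was Pcdhgb6. For no tested member did all embryos of one group lie above all of the other, which 0.574% of all tested genes did.

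The fitted log2 fold change was above 0 in 36 of the 54 members, beside 48.3% of all genes tested, and its median was 0.13 over the members and -0.01 over all genes. The median was 0.04 in the alpha variable subgroup, -0.15 in the alpha C-type, 0.08 in beta, 0.33 in gamma A, 0.24 in gamma B and 0.48 in gamma C. The gamma B median was -0.28 without M-Z- replicate 3. The alpha C-type median, taken over 2 members, was 0.36 without M-Z+ replicate 4. That of the alpha variable subgroup was -0.02 without M-Z- replicate 3. The standard error of the log2 fold change differed between the clusters, with a median of 0.34 in alpha, 0.19 in beta and 0.53 in gamma, beside 0.13 over all genes.

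**Figure D2:**
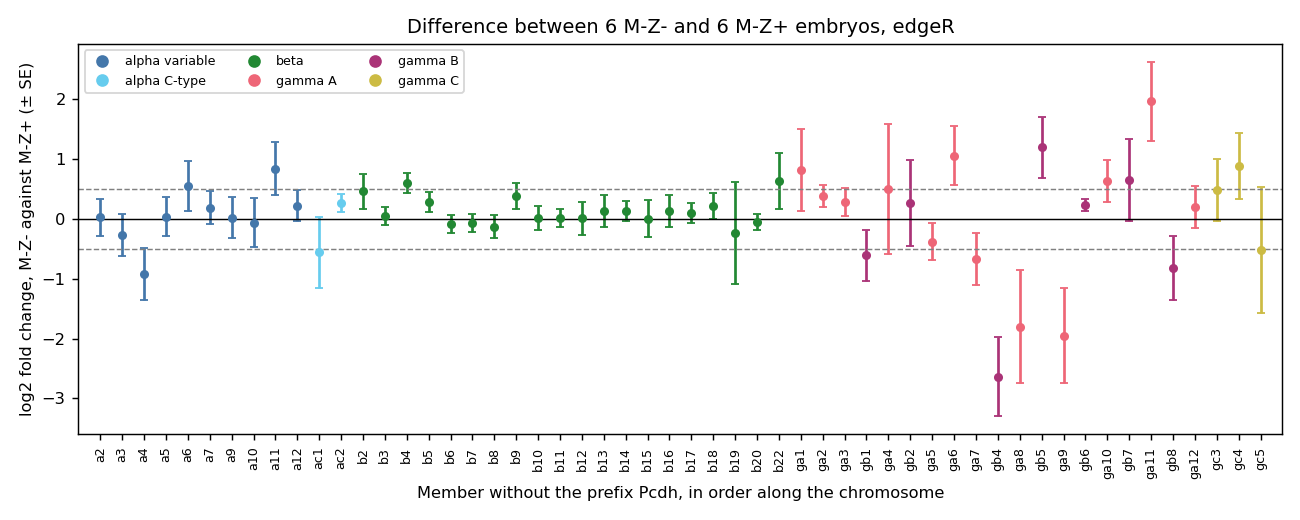
The log2 fold change of M-Z- against M-Z+ embryos for each of the 54 tested members, in order along the chromosome, with bars of ± SE from edgeR (6 embryos per group) and dashed lines at the limit of 0.5. Most beta members sit near 0 with short bars, Pcdhb4 (0.60) and Pcdhb22 (0.64) lie above the upper dashed line, Pcdhb19 has the longest beta bar, and gamma members spread from -2.64 (Pcdhgb4) to 1.97 (Pcdhga11) with long bars.

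Single beta members varied less between embryos than single alpha or gamma members, with a median coefficient of variation of 23.1% in the M-Z+ group and 21.2% in the M-Z- group, beside 52.4% and 32.6% in alpha and 71.2% and 76.9% in gamma. The sum of the beta cluster was steadier than the gamma sum only in the M-Z- group. In the M-Z+ group the coefficient of variation of the beta sum was 20.7%, beside 14.9% for alpha and 15.4% for gamma. In the M-Z- group it was 9.81%, beside 8.43% for alpha and 16.8% for gamma. The beta sum of the M-Z+ group was 104 CPM at the lowest, 108 CPM at the median and 166 CPM at the highest. In M-Z- embryos it was 112 CPM at the lowest, 122 CPM at the median and 143 CPM at the highest. The 3 highest sums were those of M-Z+ replicate 6 (166 CPM), M-Z- replicate 5 (143 CPM) and M-Z- replicate 6 (137 CPM). These were the same 3 embryos with the highest gene length slopes, and the part of the slope in these sums was not tested. With the slope as a covariate, 0 members were called.

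Per length, Pcdhb7 was the highest of the tested beta members at a mean of 2.94 CPM per kb over 12 embryos, followed by Pcdhb17 at 2.73 and Pcdhb20 at 2.63 CPM per kb. The ranges of these 3 over the embryos overlapped, from 2.17 to 3.67 CPM per kb for Pcdhb7, from 2.00 to 3.66 for Pcdhb17 and from 1.97 to 3.33 for Pcdhb20. Pcdhb13 was the lowest of the tested beta members at 0.444 CPM per kb, with a range from 0.249 to 0.817. Pcdhb1, the first beta gene, had 0 to 2 counts per embryo.

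Pcdhb7 had 7.80 CPM at the lowest, 10.5 CPM at the median and 12.7 CPM at the highest in the M-Z+ group. It had 7.59, 10 and 12.9 CPM in the M-Z- group in the same order. The groups covered nearly the same range, and the log2 fold change was -0.06 ± 0.15 (SE), which was slightly above 0 without M-Z+ replicate 6 (0.0015) or without M-Z- replicate 2 (0.01). Pcdhb13 had 1.29, 1.45 and 2.03 CPM in the M-Z+ group and 0.925, 1.59 and 3.03 CPM in the M-Z- group. Its highest embryo was M-Z- replicate 6, and its log2 fold change of 0.13 ± 0.27 (SE) was -0.11 without that embryo.

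Pcdhb4 was the beta member with the lowest unadjusted p. It had 2.28 CPM at the lowest, 2.62 CPM at the median and 3.13 CPM at the highest in the M-Z+ group, and 2.86, 3.92 and 5.11 CPM in the M-Z- group. The highest M-Z+ embryos reached above the lowest M-Z- embryo, so the groups overlapped slightly. Pcdhb4 thus had a log2 fold change of 0.60 ± 0.17 (SE) with an adjusted p of 0.589 in edgeR. The two-sided exact permutation test of mean CPM gave p = 0.00649, unadjusted and for a member chosen by its p in the same data.

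Pcdhb19, Pcdhb21 and Pcdhb22, near the end of the cluster, were the beta genes whose levels jumped between embryos. Pcdhb19 was at 0 counts in M-Z+ replicate 3, M-Z- replicate 1 and M-Z- replicate 3, and had 122 to 350 counts in each of the other 9 embryos. A count of 0 allows up to 0.228, 0.249 and 0.252 CPM in those 3 libraries, counting error only, beside a lowest value of 7.77 CPM elsewhere. Its neighbour Pcdhb20, which begins after a gap of 135 bases, showed no such gap and had 92 to 214 counts in every embryo. For Pcdhb19 the log2 fold change was -0.24 ± 0.85 (SE), and it was 0.04 without M-Z+ replicate 6, 0.0039 when M-Z- replicate 1 was left out and 0.01 when M-Z- replicate 3 was.

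Pcdhb22 had 27 counts in M-Z+ replicate 2 and 17 counts in M-Z+ replicate 3, and 197 to 413 counts in every other embryo. In these same 2 embryos the overlapping entry Pcdhb21 had 67 and 76 counts. Pcdhb21 was at 0 in 5 embryos and had 203 counts in M-Z+ replicate 6. The counts of both entries together were 94 and 93 in M-Z+ replicates 2 and 3, 616 in M-Z+ replicate 6, and 197 to 276 in the other 9 embryos. Pcdhb22 had the highest log2 fold change of the tested beta members, 0.64 ± 0.47 (SE) with an adjusted p of 0.757 in edgeR. Without these 3 genes, the beta sum was 92.6 ± 14.5 CPM (SD, n = 6) in the M-Z+ group and 98.5 ± 7.69 CPM (SD, n = 6) in the M-Z- group.

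**Figure D3:**
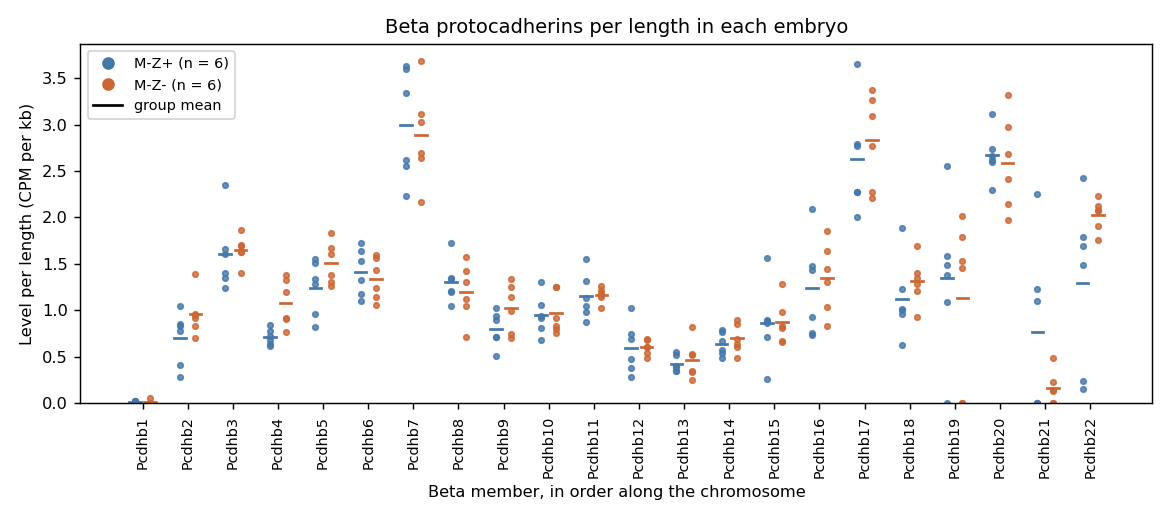
Level of each of the 22 beta members in CPM per kb of length, in order along the chromosome. Points are embryos and short lines are means of 6 embryos per group. Pcdhb7, Pcdhb17 and Pcdhb20 stand highest, and Pcdhb19, Pcdhb21 and Pcdhb22 have embryos at or near 0.

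The alpha cluster had few reads, from 310 to 667 counts per embryo over all 14 members. It held 4.83% ± 1.03 (SD, n = 12) of the summed level of the 58 members, beside 18.9% ± 3.84 for beta and 76.3% ± 4.51 for gamma. Its sum ran from 25.0 to 36.0 CPM in the M-Z+ group and from 29.0 to 36.2 CPM in the M-Z- group. The C-type member Pcdhac2, which ends the cluster, was the highest per length at a mean of 0.959 CPM per kb. It was also steady among embryos, with 3.95 CPM at the lowest, 5.11 CPM at the median and 6.24 CPM at the highest in the M-Z+ group and 4.74, 6.33 and 7.61 CPM in the M-Z- group. Pcdhac2 had a log2 fold change of 0.26 ± 0.15 (SE) with an adjusted p of 0.752 in edgeR.

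Of the tested variable alpha members, Pcdha3 was the highest per length at 0.535 CPM per kb and Pcdha6 the lowest at 0.0853 CPM per kb. Per kb the ranges over embryos reached from 0.221 to 1.29 for Pcdha3 and from 0.0235 to 0.175 for Pcdha6, without overlap. This separation depended on the implied lengths, 5332 bases for Pcdha3 and 13941 bases for Pcdha6. In CPM the ranges overlapped, from 1.18 to 6.90 for Pcdha3 and from 0.328 to 2.44 for Pcdha6. Pcdha2, with an implied length of 9858 bases, had a median of 4.64 CPM over 12 embryos, above the 2.61 CPM of Pcdha3. Without M-Z+ replicate 4, Pcdha2 was the highest at 0.507 CPM per kb and Pcdha3 followed at 0.465. Pcdha6 had 0.328, 0.711 and 2.44 CPM in the M-Z+ group and 0.841, 1.23 and 2.36 CPM in the M-Z- group as the lowest, median and highest values, and its log2 fold change was 0.55 ± 0.42 (SE). Pcdha8 was nearly silent with 0 to 4 counts per embryo, and Pcdha1 had 0 to 22.

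One embryo, M-Z+ replicate 4, had an alpha make-up of its own. It had 205 counts of Pcdha4, beside 19 to 68 in the other 11 embryos. It had 128 counts of Pcdha3, beside 18 to 45, and 92 counts of Pcdhac1, beside 3 to 19. In the same embryo Pcdha2 had 21 counts, beside 45 to 101 in the others. Its alpha sum of 36.0 CPM still lay below the 36.2 CPM of M-Z- replicate 3. For Pcdha4 the log2 fold change, the lowest of the tested alpha members, was -0.92 ± 0.44 (SE) with an adjusted p of 0.749 in edgeR, and was -0.27 without this embryo. For Pcdha3 it was -0.27 ± 0.35 (SE) and turned to 0.15 without it. That of Pcdhac1, the lower C-type member at 0.222 CPM per kb, was -0.56 ± 0.60 (SE) and turned to 0.47 without it. M-Z+ replicate 4 also had the lowest gene length slope of the 12 libraries (0.437). With the slope as a covariate the log2 fold changes were -0.53 for Pcdha4, -0.04 for Pcdha3 and 0.08 for Pcdhac1. The part of the slope in the values of this embryo was not tested.

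Pcdha11 was the tested alpha member with the highest log2 fold change. It had 0.539 CPM at the lowest, 0.927 CPM at the median and 3.65 CPM at the highest in the M-Z+ group, and 1.85, 3.05 and 4.15 CPM in the M-Z- group. M-Z+ replicates 1, 2, 4 and 5 were below every M-Z- embryo, whereas replicates 3 and 6 lay within the M-Z- range. This gave a log2 fold change of 0.84 ± 0.44 (SE) with an adjusted p of 0.749 in edgeR, and the two-sided exact permutation test of mean CPM gave p = 0.0736. The smallest p that this test can give with 6 against 6 embryos is 0.00216.

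The gamma cluster held most of the reads, and its members varied widely between embryos. The sum was 490 ± 75.2 CPM (SD, n = 6) in the M-Z+ group and 507 ± 84.9 CPM (SD, n = 6) in the M-Z- group. It fell between 514 and 588 CPM in 8 embryos and between 382 and 417 CPM in the other 4, namely replicates 4 and 6 of the M-Z+ group and replicates 3 and 5 of the M-Z- group. The coefficient of variation of the sum was 15.4% in the M-Z+ group and 16.8% in the M-Z- group. It was 20.7% and 9.81% for the beta sum and 14.9% and 8.43% for the alpha sum in the same order of groups. A sum over members that vary apart varies less than they do, so that sums were not compared with single members.

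A few gamma members stood far above their usual level in almost every embryo. The set differed from embryo to embryo, but single members recurred, such as Pcdhgb4 in M-Z+ replicates 1, 3, 5 and 6. Counting a value as high when it was over 3 times the median of that member in the 12 embryos, 35 of the 264 gamma values were high, 19 in the M-Z+ group and 16 in the M-Z- group. At least 1 high value was found in 17 of the 22 gamma members (77.3%), in 2 of the 12 tested alpha members, in 0 of the 20 tested beta members and in 1.12% of all genes tested. The low count filter left out Pcdhb21, Pcdha1 and Pcdha8, whose highest values were 16.7, 4.43 and 3.82 times their medians, but no gamma member. The high gamma values were spread over 11 embryos. The high members of an embryo together held 180 to 251 CPM in each of these 11, which was 34.3% to 54.3% of its gamma level. M-Z- replicate 5 had no high gamma member and a gamma sum of 386 CPM.

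**Figure D4:**
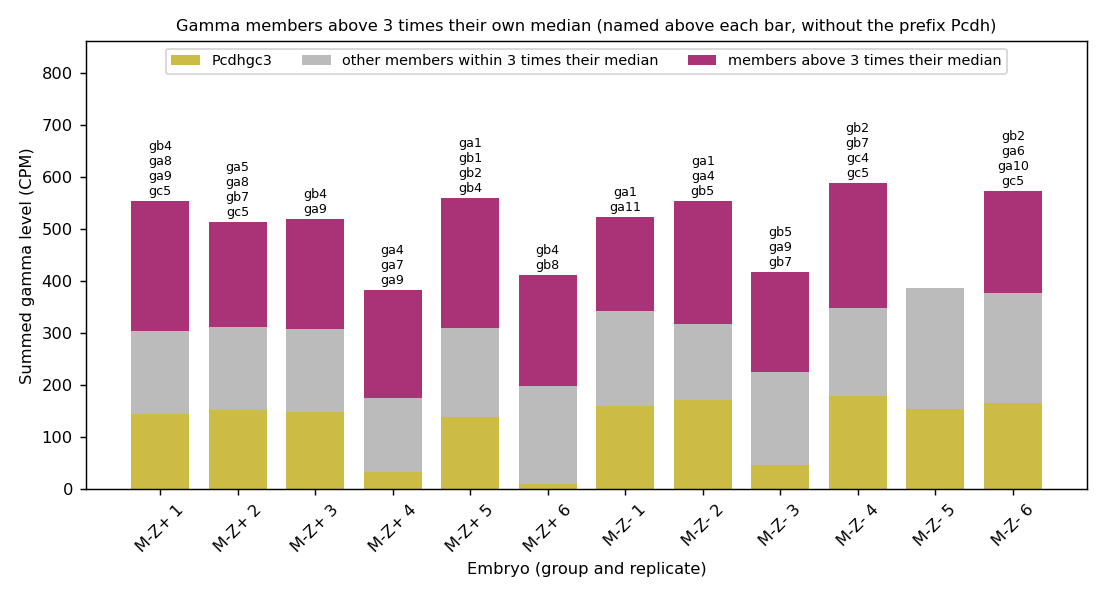
Summed gamma level of each embryo in CPM, divided into Pcdhgc3, the other members within 3 times their own median over 12 embryos, and the members above it. The names above a bar, given without the prefix Pcdh, are the members above 3 times their median in that embryo, and M-Z- replicate 5 has none.

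Among the gamma A members, Pcdhga4 was the highest of the tested ones per length at a mean of 5.19 CPM per kb, but Pcdhga11 was the highest without M-Z+ replicate 4 (4.41 CPM per kb) or without M-Z- replicate 2 (4.39 CPM per kb). Pcdhga4 had 1873 counts in M-Z+ replicate 4 and 2016 counts in M-Z- replicate 2, and 7 to 297 in the other 10 embryos. In M-Z+ embryos it had 0.540, 11.7 and 101 CPM as the lowest, median and highest values, and 0.762, 12.9 and 150 CPM in the M-Z- group. The groups thus had like medians and 1 high embryo each. This gave a log2 fold change of 0.50 ± 1.09 (SE), which was 2.04 without M-Z+ replicate 4 and -1.19 without M-Z- replicate 2.

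Pcdhga9 had 2162 counts in M-Z+ replicate 3, the highest value of a gamma A member, beside 60 to 735 in the other embryos. Pcdhga9 had a log2 fold change of -1.95 ± 0.80 (SE) with an adjusted p of 0.744 in edgeR and p = 0.173 in the exact permutation test. Pcdhga11 was the gamma member with the highest log2 fold change. It had 4.80, 7.06 and 15.3 CPM in the M-Z+ group and 6.03, 14.7 and 122 CPM in the M-Z- group as the lowest, median and highest values. The 122 CPM were the 1467 counts of M-Z- replicate 1, and no other embryo had more than 272. Its log2 fold change of 1.97 ± 0.66 (SE), with an adjusted p of 0.705 in edgeR and p = 0.0649 in the exact permutation test, was 0.71 without this embryo.

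Pcdhga12 was the lowest gamma A member per length at 1.09 CPM per kb, a rank that depended on its implied length of 9432 bases. Its mean was 9.54 CPM in the M-Z+ group and 10.9 CPM in the M-Z- group. Those of Pcdhga3, with 4720 bases, were lower at 7.62 and 9.28 CPM. Pcdhga12 had 6.63, 8.29 and 17.2 CPM in the M-Z+ group and 5.21, 8.76 and 24.9 CPM in the M-Z- group, with the highest values in M-Z+ replicate 5 and M-Z- replicate 6. The log2 fold change of 0.20 ± 0.35 (SE) was -0.24 without M-Z- replicate 6. Pcdhga2 and Pcdhga3 had no high value at all. Pcdhga2 had 8.90 to 12.6 CPM in the M-Z+ group and 9.37 to 20.9 CPM in the M-Z- group.

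Among the gamma B members, Pcdhgb4 differed most between the groups. It had 3025 counts in M-Z+ replicate 6, 1039 in M-Z+ replicate 5, 961 in M-Z+ replicate 1 and 596 in M-Z+ replicate 3. It had 87 and 101 counts in M-Z+ replicates 2 and 4 and 77 to 196 counts in all 6 M-Z- embryos. The high values were thus in 4 M-Z+ embryos, whereas the lowest M-Z+ value of 5.45 CPM was below the lowest M-Z- value of 6.4 CPM. Its log2 fold change was -2.64 ± 0.66 (SE) with an adjusted p of 0.464 in edgeR, and -2.07 without M-Z+ replicate 6. The exact permutation test of mean CPM gave a two-sided p of 0.0584.

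Pcdhgb7 was the highest gamma B member per length at 5.65 CPM per kb, a mean drawn up by 1304 counts in M-Z- replicate 3, 733 in M-Z+ replicate 2 and 607 in M-Z- replicate 4. Without M-Z- replicate 3, Pcdhgb4 was the highest at 4.48 CPM per kb and Pcdhgb7 followed at 4.04. The median of Pcdhgb7 was 12.9 CPM in the M-Z+ group and 10.6 CPM in the M-Z- group, and its log2 fold change of 0.65 ± 0.69 (SE) was -0.28 without M-Z- replicate 3. Pcdhgb5 was the lowest gamma B member per length at 1.51 CPM per kb, close to Pcdhgb1 at 1.53, which was the lowest when any of 5 embryos was left out. Pcdhgb5 had 667 and 384 counts in M-Z- replicates 3 and 2, and 61 to 152 in the other 10 embryos. Its log2 fold change was 1.20 ± 0.51 (SE) with an adjusted p of 0.744 in edgeR and p = 0.275 in the exact permutation test. It was 0.52 without M-Z- replicate 3.

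Pcdhgb6 behaved unlike its neighbours. It had 157 to 285 counts in the 12 embryos, and its highest CPM was 1.59 times its lowest, beside a median ratio of 12.2 over the gamma members and 1.72 over all genes tested. It had 11.5, 13.5 and 15.7 CPM in the M-Z+ group and 14.1, 15.7 and 18.2 CPM in the M-Z- group as the lowest, median and highest values. Pcdhgb6 had a log2 fold change of 0.24 ± 0.10 (SE), the smallest standard error of all tested members, with an adjusted p of 0.744 in edgeR and p = 0.039 in the exact permutation test. Its biological coefficient of variation, the spread between embryos beyond counting error as estimated by edgeR, was 0.131, beside a median of 0.614 over the gamma members, 0.204 over beta, 0.387 over alpha and 0.164 over all genes. It was over 0.5 in 15 of the 22 gamma members, 2 of 12 alpha and 2 of 20 beta members, and in 1.95% of all genes.

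Pcdhgc3, a C-type member, was the highest of all 58 members per length at a mean of 13.1 CPM per kb. It had 1794 to 2343 counts in 9 embryos, but 611 in M-Z+ replicate 4, 191 in M-Z+ replicate 6 and 549 in M-Z- replicate 3. These 3 embryos were among the 4 with the lowest gamma sums. In M-Z+ embryos it had 9.95, 142 and 151 CPM as the lowest, median and highest values, and 46.2, 162 and 178 CPM in the M-Z- group. Its log2 fold change was 0.48 ± 0.52 (SE) with an adjusted p of 0.802 in edgeR. Without Pcdhgc3 the gamma sum was 385 ± 28.7 CPM (SD, n = 6) in the M-Z+ group and 361 ± 65.7 CPM (SD, n = 6) in the M-Z- group, with the lowest value of 233 CPM in M-Z- replicate 5.

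The other C-type gamma members also jumped. Pcdhgc5 had 1266 and 1078 counts in M-Z+ replicates 1 and 2, 959 and 815 counts in M-Z- replicates 4 and 6, and 16 to 153 counts in the other 8 embryos. Pcdhgc5 had a log2 fold change of -0.52 ± 1.05 (SE). Pcdhgc4, the lowest C-type gamma member per length at 1.92 CPM per kb, had 856 counts in M-Z- replicate 4 and 93 to 366 elsewhere. Its log2 fold change was 0.88 ± 0.55 (SE) with an adjusted p of 0.753 in edgeR, and 0.06 without M-Z- replicate 4.

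The deposited FPKM values follow from the same counts and were no second measurement of the jumps. All gamma entries share their constant exons, as do all alpha entries, whereas beta entries do not, and the part of the assignment of shared reads in the jumps was not tested.

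**Figure D5:**
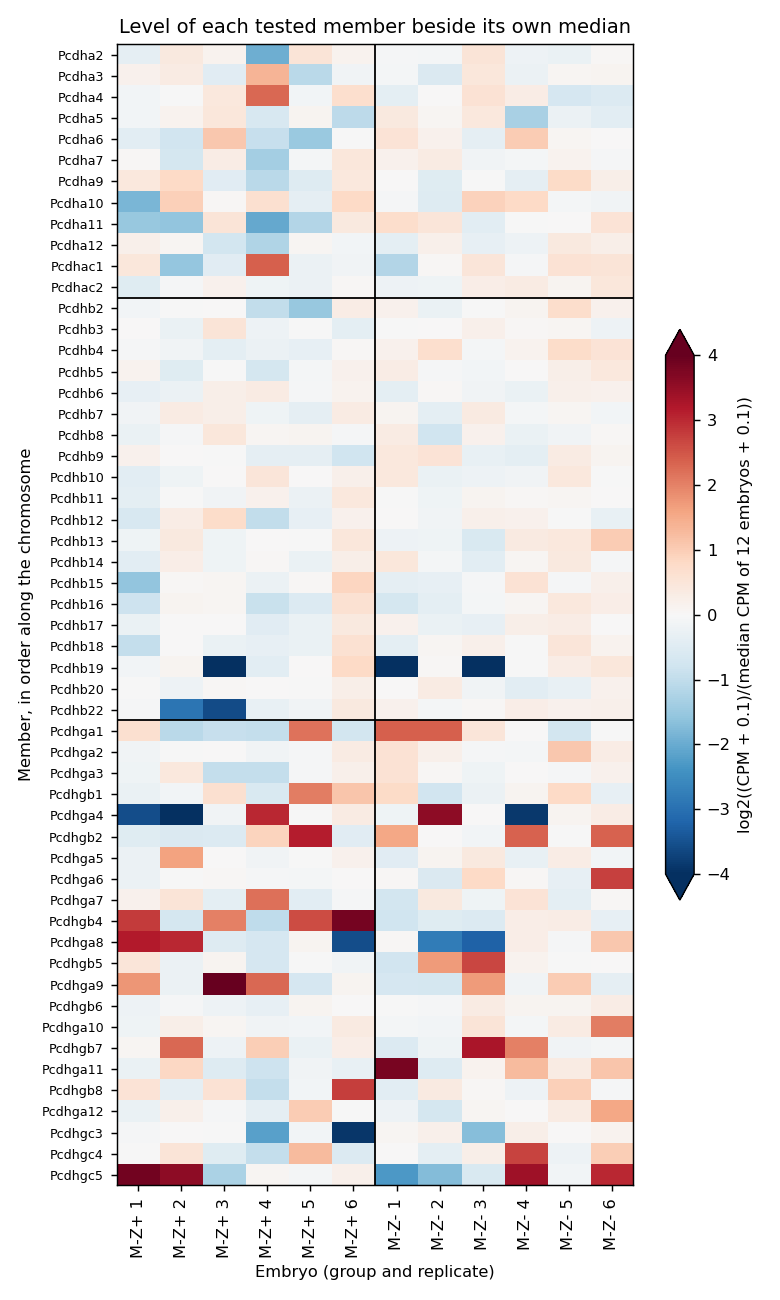
Level of each of the 54 tested members in each embryo beside the median of that member over 12 embryos, as log2 of the ratio with 0.1 CPM added to both. Members are in order along the chromosome, with lines between the 3 clusters and between the groups, and colours stop at 4 in either direction. Deep colours are scattered over single embryos in the gamma rows, and beta rows are pale except Pcdhb19 and Pcdhb22.

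Among genes that act with the clustered protocadherins, flank them or are non-clustered protocadherins, 0 were called. Of 21 regulators of the clusters, among them CTCF, the cohesin subunits and the DNA methyltransferases, all were tested, and the median log2 fold change was 0.13. At an unadjusted p below 0.05 they held 2 genes higher in the M-Z- group and 0 lower, beside 6.70% of all genes in either direction. These were Dnmt3a and Rad21 (log2 fold change 0.15 ± 0.07, SE). Dnmt3a, which encodes a de novo DNA methyltransferase, had the lowest p of them (0.0452), with 341 ± 42.8 CPM (SD, n = 6) in the M-Z+ group and 396 ± 46.5 CPM (SD, n = 6) in the M-Z- group, a log2 fold change of 0.22 ± 0.10 (SE) and an adjusted p of 0.745 in edgeR.

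The 20 partners in binding and signalling include the kinases Ptk2 and Ptk2b and the subunits of the WAVE complex. Of these, 1 was higher and 1 lower at the unadjusted p, beside 6.70% of all genes in either direction. Their median log2 fold change was 0.00. Nckap1, a subunit of the WAVE complex that nucleates actin branches through Arp2/3, had the lowest p of them, with a log2 fold change of 0.17 ± 0.07 (SE) and an adjusted p of 0.744 in edgeR. Of 15 genes flanking the clusters, 14 were tested and 0 passed the unadjusted p. Their log2 fold changes ran from -0.21 to 0.25, and Ndufa2, which encodes a subunit of respiratory complex I, had the lowest p (0.117).

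The 12 non-clustered protocadherins lie outside the clusters and do not share constant exons. Of these, 2 were higher at the unadjusted p and 0 lower, beside 6.70% of all genes in either direction. Their median log2 fold change was 0.15. Pcdh19 had the lowest p (0.00547). It had 30.1 to 51.3 CPM in the M-Z+ group and 48.1 to 66.2 CPM in the M-Z- group, so that the groups overlapped. For Pcdh19 the log2 fold change was 0.44 ± 0.13 (SE) with an adjusted p of 0.662 in edgeR.

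Neuron markers, which mark a cell type that expresses clustered protocadherins but not every such cell type, were all found in both groups. Of the 15, 6 were lower in the M-Z- group at the unadjusted p, none was higher, and 0 were called, beside 6.70% of all genes that passed the unadjusted p in either direction. For Nefl and Stmn2 the lowest M-Z+ value was above the highest M-Z- value, and 0.574% of all tested genes were without overlap in either direction. The median of their log2 fold changes was -0.17. Their summed level was 2540 to 3130 CPM in the M-Z+ group and 2391 to 2749 CPM in the M-Z- group. Stmn2, which encodes a microtubule regulator of growing axons and was chosen after its values were seen, had 246 to 278 CPM in the M-Z+ group against 205 to 242 CPM in the other. Nefl, which encodes the light neurofilament chain, had 194 ± 8.67 CPM (SD, n = 6) in the M-Z+ group and 164 ± 12.1 CPM (SD, n = 6) in the M-Z- group, and a log2 fold change of -0.24 ± 0.06 (SE) with an adjusted p of 0.527 in edgeR. Of the 13 neural progenitor markers, 2 were lower and 0 higher at the unadjusted p, with a summed level of 1487 to 1834 CPM in the M-Z+ group and 1421 to 1691 CPM in the M-Z- group. Fabp7, a fatty acid binding protein of radial glia, had the lowest p of these (0.0069), with an adjusted p of 0.685 in edgeR. The part of neural cell number in the protocadherin values was not tested.

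Markers of other tissues were detected as well, as whole embryos contain them, and 0 were called. The 8 hepatocyte markers together had 3502 to 7034 CPM in the M-Z+ group and 2657 to 6639 CPM in the M-Z- group, and the 8 erythroid markers had 4398 to 7732 CPM and 3552 to 6838 CPM. The 8 skeletal muscle markers had 1060 to 1335 CPM in the M-Z+ group and 1164 to 1336 CPM in the M-Z- group, the 8 cartilage and mesenchyme markers 5063 to 7006 CPM and 5622 to 7219 CPM, and the 6 neural crest and glia precursor markers reported 107.7 to 134.4 CPM and 110.3 to 126.7 CPM. In the same order of lists, the genes with the lowest p were Apoa2 (log2 fold change -0.43 ± 0.28, SE), Klf1 (-0.32 ± 0.13), Myh8 (0.31 ± 0.12), Pdgfra (0.21 ± 0.10) and Foxd3 (-0.18 ± 0.16), with adjusted p from 0.744 to 0.781 in edgeR.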

How the data were processed

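The authors deposited raw counts of reads per gene and FPKM values for 12 whole E13.5 embryos, 6 M-Z+ and 6 M-Z-. The submitters' processing notes name Trim Galore 0.4.1, HISAT2 2.0.4 and mm10. Which program counted the reads, how it treated strand and shared exons, and which annotation it used is not given in the sources used here. Counts were used for all tests, and the deposited FPKM values only for gene lengths. The labels do not give sex or litter. The p-values take the embryos as independent, which embryos sharing a litter or batch may not be, and this was not tested. M-Z- were compared with M-Z+ embryos without covariates in edgeR 4.0.16 (R 4.3.3, limma 3.58.1) with TMM, filterByExpr, glmQLFit and glmQLFTest. The SE is the size of the log2 fold change divided by the square root of F. Permutation tests used all 924 divisions, and their p-values were not adjusted for the number of members. DESeq2 1.42.0 and other alternatives were run, the rank per kb with each embryo left out being added after seeing the data. Only the edgeR fit was tested on simulated data. The simulation gave every gene the same small spread, which does not represent the spread of most gamma members. Figures were made with matplotlib 3.10.9 in Python 3.11.15.

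The members and lists were chosen with earlier results of these data known. Genes were named by rule: members called, members with non-overlapping groups, the tested members highest and lowest per kb in each subgroup or by log2 fold change in each cluster, Zfp57, and the gene of lowest p in each list. Other members given by value were chosen after their values were seen. A neural crest and glia precursor marker is not reported here.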

Additional observations from a re-analysis of the deposited data

Results flagged for a closer look

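In 17 of 78 groups of 6 values, 1 embryo stood apart from the other 5 by more than Dixon's 95% limit. Chance gives about 1 in 20 for independent, unselected values of normal spread. The groups looked at include members named for their extreme fold change or level per kb, and sums over members. Their share is therefore no test against chance. Over all 58 members 1 embryo stood apart in 26 of 116 groups, 18 of them in gamma, 6 in alpha and 2 in beta.

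In the alpha cluster M-Z+ replicate 4 was apart for Pcdha3 (6.90 CPM, beside 1.18 to 3.31 in the other 5 embryos of its group), Pcdha4 (11.1 CPM, beside 2.01 to 3.54), Pcdhac1 (4.96 CPM, beside 0.231 to 1.21) and the C-type sum (9.87 CPM, beside 5.15 to 6.85). M-Z+ replicate 3 was apart for Pcdha6 (2.44 CPM, beside 0.328 to 1.09) and M-Z- replicate 3 for the alpha variable sum (28.2 CPM, beside 22.3 to 23.9). The beta sum was apart in M-Z+ replicate 6 (166 CPM, beside 104 to 114).

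In the gamma cluster Pcdhga4 was apart in M-Z+ replicate 4 (101 CPM, beside 0.540 to 15.5) and in M-Z- replicate 2 (150 CPM, beside 0.762 to 15.2). Pcdhga11 was apart in M-Z+ replicate 2 (15.3 CPM, beside 4.80 to 7.80) and in M-Z- replicate 1 (122 CPM, beside 6.03 to 20.7). Pcdhga12 was apart in M-Z+ replicate 5 (17.2 CPM, beside 6.63 to 9.71) and in M-Z- replicate 6 (24.9 CPM, beside 5.21 to 10.6). Pcdhgb7 was apart in M-Z+ replicate 2 (56.5 CPM, beside 9.57 to 22.5) and Pcdhgc4 in M-Z- replicate 4 (65.2 CPM, beside 7.67 to 20). Pcdhgc3 was apart on the low side in M-Z- replicate 3 (46.2 CPM, beside 153 to 178).

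Outside the clusters, Myh8 was apart in M-Z+ replicate 3 (78.4 CPM, beside 56.6 to 64.3).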

How the results depend on the processing

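The count of 0 members called held with DESeq2, another normalization (RLE), a looser filter (1 count in all), a stricter one (mean of 50 counts or more), the replicate block, the gene length slope, no fold change limit and each embryo left out. With DESeq2 the adjusted p of Pcdhgb4 was 0.0512, just above the limit. The count of members was 5 by the unadjusted p. Over all genes, the count of 13 became 40 with DESeq2, 21 with the replicate block, 23 with the gene length slope and 247 by the unadjusted p. The same replicate numbers gave correlations of 0.0202 to 0.639 between groups, and 3 of 6 M-Z+ embryos correlated best with their own number. The labels do not say what the numbers stand for, so the main fit did not pair the embryos by them. Whether equal numbers mark a shared batch or litter was not tested. Of the lists, 1 non-clustered protocadherin was called by the unadjusted p, and 0 genes of the other lists. Per kb the share of beta was 26.4% in place of 18.9%. With 1 embryo left out at a time, the gamma B median log2 fold change lay between -0.28 and 0.28. That of alpha C-type lay between -0.26 and 0.36 and that of alpha variable between -0.02 and 0.15. With the gene length slope the alpha C-type median was 0.13 and the beta median -0.03. With the gene length slope Pcdhac1 (0.08), Pcdhb13 (-0.11) and Pcdhga12 (-0.15) turned direction. Leaving out 1 embryo turned the direction of Pcdha3 (range -0.45 to 0.15), Pcdhac1 (-0.78 to 0.47), Pcdhb7 (-0.14 to 0.01), Pcdhb13 (-0.11 to 0.26), Pcdhb19 (-0.50 to 0.04), Pcdhga4 (-1.19 to 2.04), Pcdhgb7 (-0.28 to 1.24), Pcdhga12 (-0.24 to 0.45) and Zfp57 (-0.24 to 0.0042), none of them called. The cause of these shifts beyond the embryos and settings themselves was not tested. The alpha cluster had 310 to 667 counts per embryo, and the highest SE of a log2 fold change was 1.09, in gamma.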
